A study of Homo sapiens with 16 samples.

Results

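The actin and tubulin genes examined here were ACTB, ACTG1, TUBB, TUBA1A, TUBA1B, TUBA1C, TUBB2A, TUBB2B, TUBB4B and TUBB6, and every called base inside the hg38 span of each gene on its own strand was taken as belonging to it. Of 452349 bases called in any of 8 m6A-eCLIP libraries, 276 lay in these 10 genes. A called base was present in 9 of the 10 genes, and in 13086 genes of the whole series. TUBB2B had no called base in any library.

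The study mapped N6-methyladenosine (m6A) in U87 MG (U87), an established human glioma line, and in U87-R, its temozolomide-resistant derivative. The 2 U87-R+STM2457 libraries came from U87-R cells exposed for 96 hours to 50 µM STM2457, a small molecule that blocks METTL3, the enzyme that writes m6A. The 3 U87-R libraries and the 3 U87 libraries came from cells labelled as DMSO controls. Medium for U87-R cells contained 50 µM temozolomide, an alkylating drug, while U87 medium did not, so the resistant state and the drug in the medium cannot be told apart in U87-R against U87. U87-R is 1 resistant line. The labels do not say whether replicates were separate cultures, and p-values reflect the scatter of these libraries, which may be technical. In m6A-eCLIP, RNA fragments bound by an antibody to m6A are crosslinked to it, and the bound position is found by sequencing. The deposited lists give each called base a score with no read number behind it, so depth is unknown, and because the 8 input libraries were not analysed here, less methylation and less RNA, from fewer cells or from each cell, cannot be told apart in a score.

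Called bases numbered 105900 and 110875 in U87-R+STM2457, 149477 to 192697 in U87-R and 150135 to 182556 in U87. The 6 glioma or mesenchymal genes looked up (VIM, NES, CD44, TNC, FN1 and EGFR) had called bases in every U87-R+STM2457 and U87-R library, and 5 of the 6 had them in every U87 library. Of 8 genes of other cell types, PTPRC, CD14, CDH5, EPCAM and KRT5 were at 0 in every library. The summed score of these 8 genes was 44.8 to 49.0 in U87-R+STM2457, 8.45 to 49.1 in U87-R and 9.17 to 17.3 in U87. PECAM1, an endothelial gene, had called bases in every library. Its sums were 9.97 and 11.7 in U87-R+STM2457, against 49.1, 18.9 and 8.45 in U87-R and 9.17, 2.77 and 10.9 in U87.

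Actins and tubulins are the building blocks of the cytoskeleton. ACTB and ACTG1 encode the cytoplasmic beta and gamma actins, which polymerise into the filaments that give a cell its shape and drive its movement. Alpha-tubulins (TUBA1A, TUBA1B, TUBA1C) and beta-tubulins (TUBB, TUBB2A, TUBB2B, TUBB4B, TUBB6) pair into dimers that build microtubules, the tracks of intracellular transport and the fibres of the mitotic spindle. METTL3 methylates adenosines inside messenger RNA, often near the stop codon and in the last exon. A related mark, m6Am, sits at the first transcribed base next to the cap, is written by PCIF1 and not by METTL3, and is also bound by m6A antibodies, so an antibody-based map can hold both.

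The members differed in the letters at their annotated starts, and these are shown because the scores close to the start and those in the rest of the gene moved differently. Each run below is RefSeq sequence of GRCh38.p14 read 5′ to 3′ on the gene's strand, with 10 bases before the start and 20 from it, and capitals mark bases called in 2 or more libraries. Where a gene has several annotated starts, the 1 with called bases is shown.
TUBA1B, chr12:49131376-49131405, minus strand: gccccgcccTAGTgcgttacttacctcgac
TUBB4B, chr9:137241277-137241306, plus strand: cgtcggttgTAgCActctgcgcgcccgctc
TUBB2A, chr6:3157525-3157554, minus strand: gggcggcggCAGgtctctgcgcagcccagc
TUBA1C, chr12:49265072-49265101, plus strand: ccaccctttCACTacttctcccccggactc
TUBB6, chr18:12308231-12308260, plus strand: gccggcccgCAGtTgccgctgtcgtccgca
TUBB, chr6:30720342-30720371, plus strand: tcctttctccctctCAgaaccttcctgccg
TUBA1A, chr12:49189061-49189090, minus strand: cctatgtgccgCAGgttctcttacATcgac
ACTG1, chr17:81512780-81512809, minus strand: cgcggtcggtctcagtcgccgctgccagct
TUBB2B, chr6:3227634-3227663, minus strand: ggccggcgctctcagcccgtcggttcccga
Of 13 annotated starts of the members in the RefSeq table, 9 began with A, and that base was called at 5 of the 9, the starts shown for TUBA1B, TUBB4B, TUBB2A, TUBA1C and TUBB6. The 4 starts with A and no call there were 2 further ones of TUBA1C, 1 of TUBB6 and 1 of TUBB. The first base was C at the TUBB start shown, where the called bases lay 4 and 5 nt downstream, and C in ACTG1 and TUBB2B, where no base of the window was called. It was G in TUBA1A, where it was not called. Over 34943 annotated starts of all genes, 44.4% began with A, and of the 3080 starts whose first base was called in 2 or more libraries 95.2% began with A. The first base was called in 18.9% of all starts that began with A. ACTB had no start in the RefSeq table, so it is absent from the sequences and from the 13 starts. The 5′ end of its span was taken as its start.

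ACTB is on chromosome 7 (5527148 to 5530601, minus strand), ACTG1 on chromosome 17 (81509971 to 81512799, minus strand), TUBB4B on chromosome 9 (137241287 to 137243707, plus strand) and TUBB6 on chromosome 18 (12307669 to 12329826, plus strand). The 3 alpha-tubulin genes neighbour each other on chromosome 12: TUBA1B (49127782 to 49131395, minus strand), TUBA1A (49184795 to 49189080, minus strand) and TUBA1C (49227926 to 49274600, plus strand). TUBB (30720352 to 30725422, plus strand), TUBB2A (3153666 to 3157544, minus strand) and TUBB2B (3224277 to 3227653, minus strand) are on chromosome 6. The number of bases called in any library was 78 in TUBB6, 50 in TUBB, 47 in TUBB4B, 34 in ACTB, 22 in ACTG1, 16 in TUBB2A, 15 in TUBA1C and 7 each in TUBA1A and TUBA1B. On the opposite strand of the same spans, 37 bases were called in TUBB6, 7 in TUBA1C, 5 in TUBA1A, 3 in TUBA1B and 0 in the others, and none of these entered the sums. Coding exons of ACTB and ACTG1 resemble each other, as do those of the alpha-tubulin genes, and of the beta-tubulin genes, within each kind. Actin and tubulin genes also have processed pseudogenes. How reads that map to several places were treated is not stated in the labels or file headers, so the split of scores between such genes is uncertain.

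The first question was what METTL3 inhibition did to these genes in resistant cells. Summed over the called bases of a gene, the score fell in both cytoplasmic actins and in 3 of the 4 beta-tubulins tested, and did not pass the test in TUBA1B, TUBA1C and TUBB2A. TUBA1A had called bases near its start in U87-R+STM2457 alone. Lower sums were called in 5 of the 9 members that passed the filter of a sum of at least 10 in 2 libraries, at an adjusted p under 0.05 in limma with Benjamini-Hochberg adjustment over 10519 genes. Over all genes tested, 37.8% were called lower and 6.29% higher, so a lower call was a common result in this comparison; without U87-R+STM2457 replicate 1 the number of genes called in either direction was 2988 in place of 4642, and the same 5 members were called lower. With each library centred on its median gene, 24.2% were lower and 15.3% higher, and with sums scaled to the library totals 21.1% were lower and 18.0% higher. The median log2 change was -0.79 over the 9 members and -0.68 over all genes tested, and centring moved the median of all genes to -0.12.

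ACTB had summed scores of 521 and 561 in the U87-R+STM2457 libraries, against 1254, 1216 and 1219.7 in the U87-R libraries. The groups did not overlap, and the log2 change was -1.18 ± 0.11 (SE; limma, adjusted p = 0.000128). ACTG1, the gamma actin gene, had sums of 208 and 227 in U87-R+STM2457, against 581, 619 and 596 in U87-R. Its change of -1.46 ± 0.13 on the log2 scale was larger than the spread between libraries (limma, adjusted p = 0.00011). Centred on the median gene, the changes of ACTB and ACTG1 were -0.63 (adjusted p = 0.0189 in limma) and -0.90 (adjusted p = 0.00564 in limma). The number of called bases in place of their summed score gave -0.28 for ACTB and -0.30 for ACTG1, and neither passed (limma, adjusted p = 0.195 and 0.267).

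TUBB, a beta-tubulin gene expressed in most cell types, had the lowest log2 change of the members tested. Its sums were 228 and 252 in U87-R+STM2457, against 765, 844 and 760.1 in U87-R, a log2 change of -1.71 ± 0.16 (limma, adjusted p = 0.000126). The change was still -1.16 when centred on the median gene (limma, adjusted p = 0.00133). TUBB4B had 689 and 685 in U87-R+STM2457, against 1137, 1375 and 1221 in U87-R, and TUBB6 had 1172 and 1185 in U87-R+STM2457, against 2041, 2098 and 1992 in U87-R. Neither pair of groups overlapped, and the log2 changes were -0.85 ± 0.13 for TUBB4B (limma, adjusted p = 0.000897) and -0.79 ± 0.11 for TUBB6 (limma, adjusted p = 0.000737). These 2 genes moved about as the median gene did: centred on it, the changes were -0.30 for TUBB4B (limma, adjusted p = 0.280) and -0.24 for TUBB6 (limma, adjusted p = 0.273), and scaled to the library totals both calls were also lost.

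**Figure D1:**
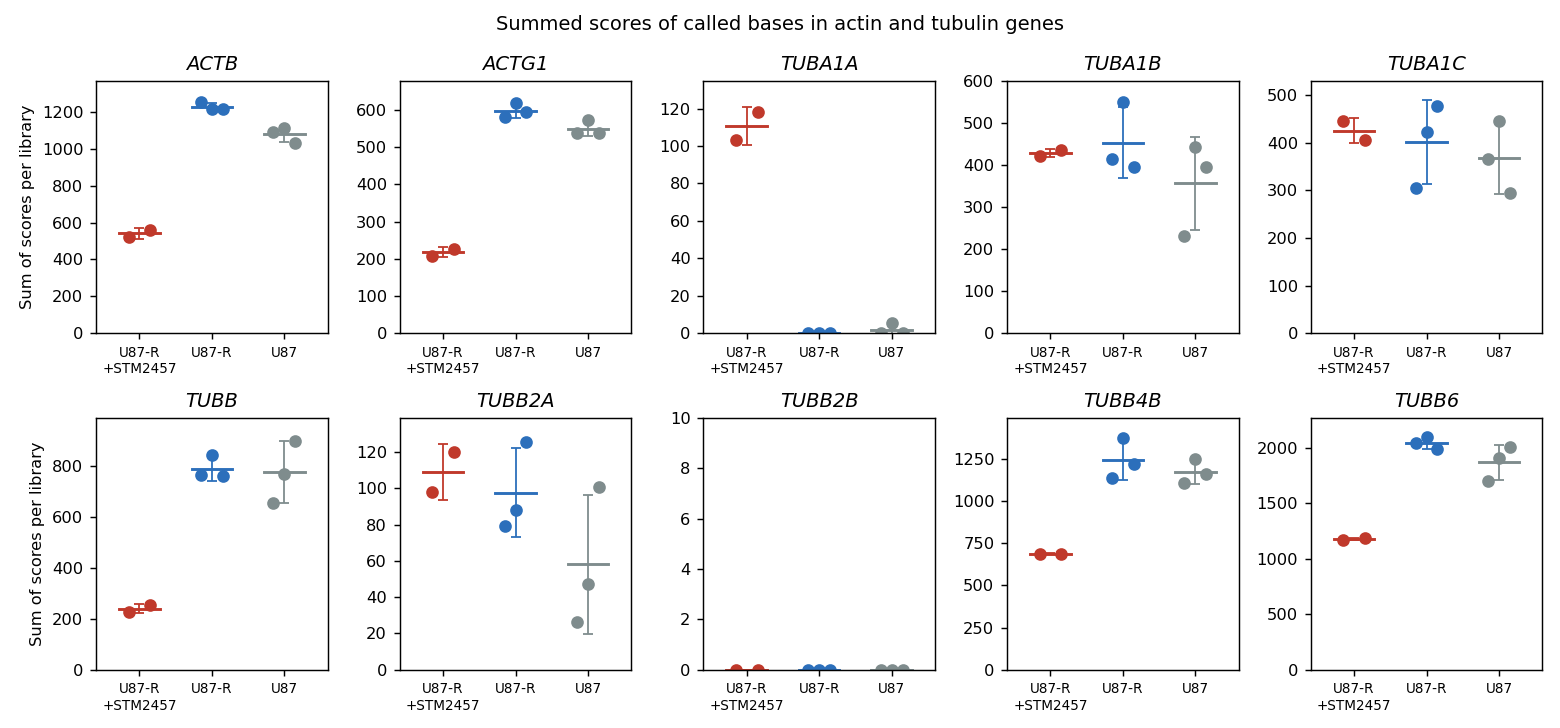
Sum of the authors' scores over the called bases of each gene (vertical axis, score units, each panel from 0) in each library, with points for libraries, lines for group means and bars for ± 1 SD. The U87-R+STM2457 libraries lie below all U87-R and U87 libraries in ACTB, ACTG1, TUBB, TUBB4B and TUBB6, among them in TUBA1B, TUBA1C and TUBB2A, and above them in TUBA1A.

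Of the alpha-tubulin genes, TUBA1B and TUBA1C did not pass the test. TUBA1B, an abundantly expressed alpha-tubulin gene of dividing cells, had sums of 423 and 435 in U87-R+STM2457, against 415, 551 and 395 in U87-R, and TUBA1C had 445 and 407 in U87-R+STM2457, against 305, 423 and 478 in U87-R. The groups overlapped in both genes, and the log2 changes were -0.06 ± 0.28 for TUBA1B (limma, adjusted p = 0.869) and 0.11 ± 0.24 for TUBA1C (limma, adjusted p = 0.739). The sign for TUBA1B turned positive under both scalings, at 0.49 when centred and 0.63 when scaled to totals, and neither passed the test. TUBB2A, a beta-tubulin gene prominent in neurons, had sums of 98.2 and 119.9 in U87-R+STM2457, against 79.2, 87.9 and 126 in U87-R, a change of 0.18 ± 0.54 (limma, adjusted p = 0.813).

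TUBA1A, the alpha-tubulin gene best known from developing neurons, was listed at 0 in all 3 U87-R libraries. Its sums were 103 and 118 in U87-R+STM2457, against 0, 0 and 0 in U87-R and 0, 5.59 and 0 in U87. It passed the filter on low sums through the U87-R+STM2457 libraries alone, so its values are a description, and neither a test nor a fold against a group listed at 0 is given. Of the called bases, 5 lay 1, 2, 3, 14 and 15 nt after the annotated start and were called in both U87-R+STM2457 libraries and in no other. The bases 1 and 2 nt after the start (49189079 and 49189078) each scored 20.02 and 30.3 in U87-R+STM2457, and the base 14 nt after it (49189066) scored 19.1 and 20.1. Among the genes of other cell types, the neuronal gene SYT1 had sums of 34.8 and 34.1 in U87-R+STM2457, against 0, 9.23 and 0 in U87-R, while RBFOX3, another neuronal gene, had 0 and 3.23 in U87-R+STM2457, against 0, 4.56 and 0 in U87-R; the part of other cell types in the TUBA1A result was not tested.

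**Figure D2:**
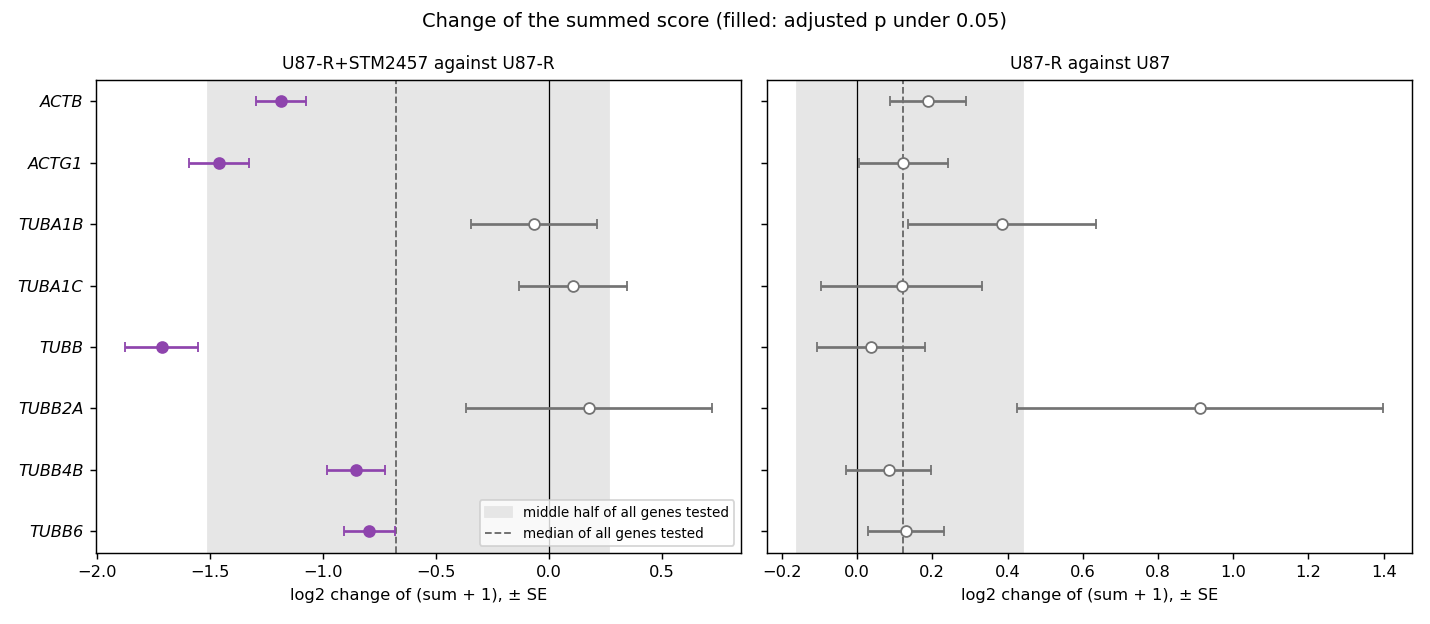
Log2 change of the summed score plus 1 for 8 members (horizontal axis, ± SE), in U87-R+STM2457 against U87-R on the left and U87-R against U87 on the right, where filled points have an adjusted p under 0.05, the grey band holds the changes between the quartiles of all 10519 genes tested and the dashed line marks their median. TUBA1A, listed at 0 in U87-R, and TUBB2B, with no called base, are left out; the 5 filled points lie between -0.79 and -1.71, and no point is filled on the right.

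Scores close to a start and scores in the rest of a gene moved differently. Over all 10 members, the bases within 50 nt downstream of an annotated start held 47.7% ± 0.272 of the summed score in U87-R+STM2457 (SD, n = 2), 23.2% ± 1.77 in U87-R (SD, n = 3) and 22.4% ± 1.96 in U87 (SD, n = 3). The sum within that window was 1877 ± 23.5 in U87-R+STM2457 and 1596 ± 189 in U87-R, while the sum over the rest of the genes was 2062 ± 48.3 in U87-R+STM2457 and 5263 ± 158 in U87-R (SD, n = 2 and 3). These are descriptions over genes that share libraries.

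In ACTB the bases within 50 nt of the start summed to 314 and 317 in U87-R+STM2457, against 326, 285 and 305 in U87-R. The rest of ACTB summed to 207 and 244 in U87-R+STM2457, against 928, 930.4 and 915 in U87-R. The start sums of the groups overlapped while those of the rest did not, and the log2 ratio of start to rest was 2.09 ± 0.31 higher in U87-R+STM2457 (limma, adjusted p = 0.00237). Over the 4434 genes with a testable ratio, 52.9% were called higher and 2.01% lower, so the members with a higher ratio did what most genes did; 4 of the 6 members tested were called higher and 0 lower. Genes called in either direction numbered 2434, and 1431 or 1540 without U87-R+STM2457 replicate 1 or 2.

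TUBB had 65.5 and 79.1 within 50 nt of a start in U87-R+STM2457, against 63.5, 94.2 and 63.2 in U87-R, and 163 and 173 in the rest of the gene in U87-R+STM2457, against 702, 750.1 and 697 in U87-R. Its start-to-rest ratio was 2.08 ± 0.37 higher on the log2 scale (limma, adjusted p = 0.00455). TUBB4B had 331 and 343 near its start in U87-R+STM2457, against 160.4, 248 and 239.7 in U87-R, and 358 and 342 in the rest in U87-R+STM2457, against 977, 1128 and 981 in U87-R. The ratio was 2.21 ± 0.33 higher for TUBB4B (limma, adjusted p = 0.00251). TUBB6 had 332 and 308 near its start in U87-R+STM2457, against 231, 293 and 240.4 in U87-R, and 840.4 and 877 in the rest in U87-R+STM2457, against 1811, 1805 and 1752 in U87-R. The ratio of TUBB6 was 1.39 ± 0.34 higher (limma, adjusted p = 0.0140), but without U87-R+STM2457 replicate 1 the adjusted p was 0.0671, and it was 0.0524 with the replicate number as a block.

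TUBB2A and TUBA1C did not pass the test of the ratio. TUBB2A had 98.2 and 88.6 near its start in U87-R+STM2457, against 35.1, 46.0 and 73.6 in U87-R, and 0 and 31.3 in the rest in U87-R+STM2457, against 44.1, 41.9 and 52.1 in U87-R. Its ratio was 3.95 ± 1.62 on the log2 scale (limma, adjusted p = 0.0753), and 6.53 without U87-R+STM2457 replicate 2 (limma, adjusted p = 0.0191). TUBA1C had 229.8 and 225 near a start in U87-R+STM2457, against 164, 253 and 309 in U87-R, and 215 and 182 in the rest in U87-R+STM2457, against 141, 170.1 and 169 in U87-R, a ratio of -0.35 ± 0.33 (limma, adjusted p = 0.376). The rest of TUBA1C and of TUBB6 holds the called base 1 nt before an inner start, 49265081 with 106 and 106 in U87-R+STM2457 against 83.9, 107 and 93.6 in U87-R, and 12308240 with 111 and 108 in U87-R+STM2457 against 85.3, 110.04 and 95.7 in U87-R. In ACTB, TUBA1B, TUBB2A and TUBB4B the like base lies outside the span and enters neither sum. With such bases left out of the rest in every gene, an alternative chosen after seeing the data, the ratio was -0.52 ± 0.40 for TUBA1C (limma, adjusted p = 0.279) and 1.51 ± 0.34 for TUBB6 (limma, adjusted p = 0.0107). Nearly all of the TUBA1B score lay at the start, with 413 and 416 in U87-R+STM2457, against 415, 549 and 395 in U87-R. ACTG1 had no called base within 50 nt of its start, and its called bases began 1167 nt downstream of it.

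Apart from TUBA1A, which passed the filter only through the U87-R+STM2457 libraries, no member was called higher or lower on the sum within 50 nt of a start (22.3% of 5077 genes were called higher and 0.847% lower). The number of genes called in either direction was 1177, and 512 or 514 without U87-R+STM2457 replicate 1 or 2. TUBB4B was nearest to the threshold, at 0.67 ± 0.20 on the log2 scale (limma, adjusted p = 0.0557). With the start windows left out, 47.5% of all genes were called lower and 4.83% higher, and the lower calls included ACTB (-2.04 ± 0.09), ACTG1 (-1.46 ± 0.08), TUBB (-2.08 ± 0.14), TUBB4B (-1.55 ± 0.10) and TUBB6 (-1.06 ± 0.10), each with an adjusted p of at most 0.000274 in limma. TUBA1B was then called higher (limma, adjusted p = 0.00124), on sums of 9.89 and 19.9 in U87-R+STM2457, against 0, 1.47 and 0 in U87-R.

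**Figure D3:**
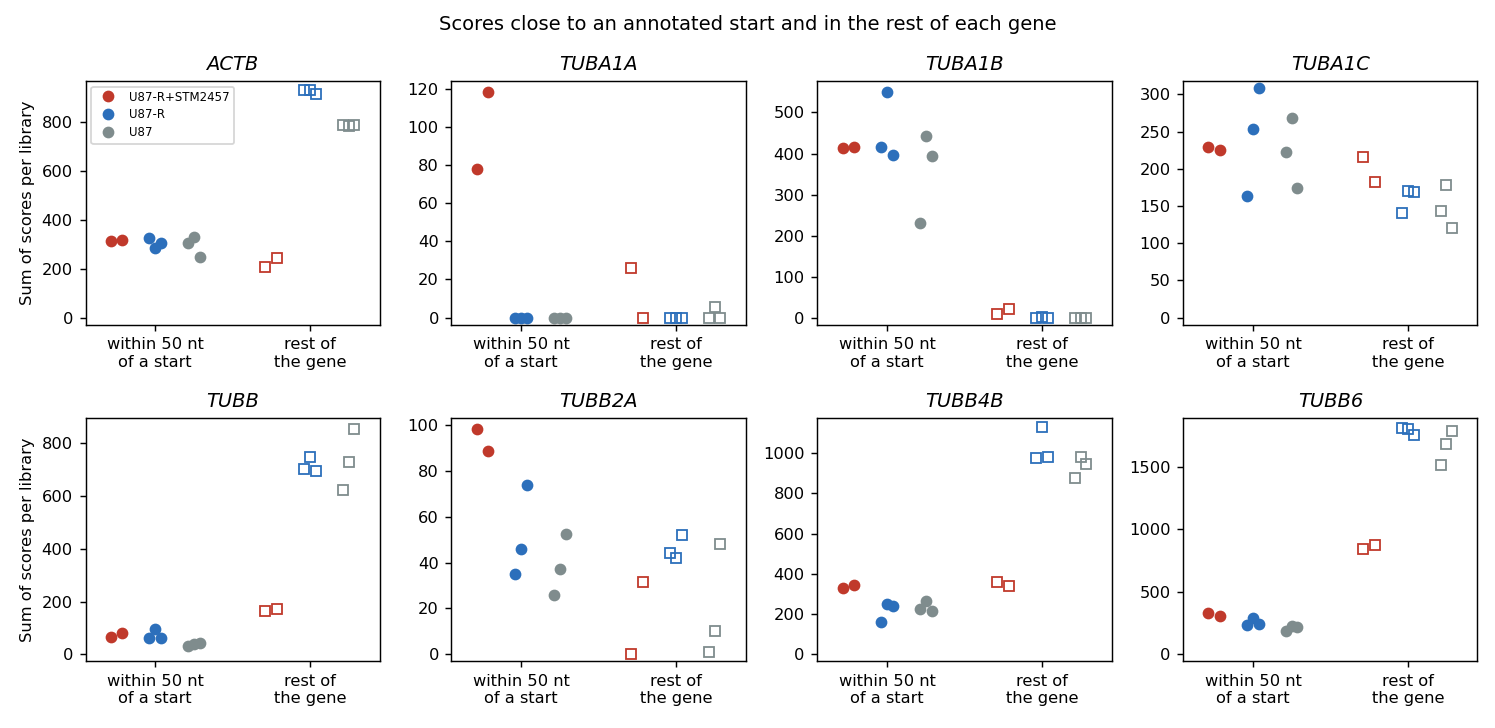
Sum of the authors' scores within 50 nt downstream of an annotated start (filled circles) and in the rest of the gene (open squares) per library, for the 8 members with a called base near a start. In ACTB, TUBB, TUBB4B and TUBB6 the open squares of U87-R+STM2457 lie below those of U87-R and U87, while their filled circles overlap those of U87-R in ACTB and TUBB and lie above them in TUBB4B and TUBB6.

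At single bases, 186 of the 276 called bases of the members passed the filter of a call in at least 2 libraries of 1 group. The score was lower in U87-R+STM2457 at 74 of the 186 and higher at 31 (39.8% and 16.7%; limma, adjusted p under 0.05), where 16.9% of all 188742 bases tested were lower and 6.65% higher. Of the 74 lower bases, 46 were listed at 0 in both U87-R+STM2457 libraries, and of the 31 higher bases, 28 were listed at 0 in every U87-R and U87 library. These bases passed the filter only through the libraries where they were high, so the counts describe where bases were called and are no support for a change. Of the 28 bases within 50 nt of a start that passed the filter 0 were lower, and 1 outside TUBA1A was higher. Of the 158 in the rest of the genes 74 were lower and 25 higher, of which 46 and 23 were such bases. Neighbouring bases can come from the same crosslinked fragments and are not independent.

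The first base of ACTB scored 124 and 126 in U87-R+STM2457, against 96.3, 116 and 103 in U87-R. Near the other end, the base 2858 nt downstream (chromosome 7, 5527743) scored 30.3 and 30.5 in U87-R+STM2457, against 111, 131 and 119 in U87-R, a log2 change of -1.95 ± 0.11 (limma, adjusted p = 4.05e-05). The bases on either side of it, 5527742 and 5527744, were listed at 0 in both U87-R+STM2457 libraries and scored 111, 131 and 119, and 102, 123 and 111, in U87-R. The first base of ACTB stayed, and the cluster with its highest U87-R scores was lower or at 0.

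In ACTG1 the highest-scoring bases lay at 81511529, 81511528 and 81510685 on chromosome 17. The base at 81511529, 1270 nt after the start, scored 34.8 and 34.6 in U87-R+STM2457, against 89.7, 102 and 89.0 in U87-R (-1.40 ± 0.11; limma, adjusted p = 0.00016). The other two fell by a like amount, at -1.30 ± 0.12 and -1.29 ± 0.12 on the log2 scale. The gene kept called bases at lowered scores: of 9 bases that scored at least 10 in every U87-R library, 6 still scored at least 10 in both U87-R+STM2457 libraries and 2 were at 0 in both. Outside the start windows of all genes, 38.8% of such bases were kept and 31.1% were at 0.

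In TUBB such bases outside the start window were not called with STM2457, instead of being kept at lower scores. Of its 13 bases outside the start window that scored at least 10 in every U87-R library, 13 were listed at 0 in both U87-R+STM2457 libraries, where all genes had 31.1%. The highest of them, at 30723429 on chromosome 6, scored 0 and 0 in U87-R+STM2457, against 65.6, 77.3 and 67.9 in U87-R. The bases at 30723431 and 30723445 were at 0 likewise, against 49.1, 70.4 and 29.9, and 54.8, 55.9 and 49.8, in U87-R. Within the start window, the bases 4 and 5 nt downstream of the start (30720356 and 30720357) each scored 32.7 and 39.5 in U87-R+STM2457, against 21.4, 37.0 and 27.9 in U87-R. A group of bases was called with STM2457 alone, among them 30720502, 150 nt from the start, with 32.3 and 34.4 in U87-R+STM2457 and 0 in every U87-R and U87 library.

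In TUBB4B the first base (137241287 on chromosome 9) scored 109 and 112 in U87-R+STM2457, against 82.5, 97.9 and 88.3 in U87-R, and the base 3 nt downstream scored 109 and 112 in U87-R+STM2457, against 28.3, 66.7 and 56.5 in U87-R. The base 3 nt downstream was called higher at 1.20 ± 0.33 (limma, adjusted p = 0.0339), and lost the call without either U87-R+STM2457 library or U87-R replicate 3, with adjusted p of 0.185, 0.196 and 0.0541 in limma, and likewise with the replicate number as a block, at 0.0544. The base 2 nt downstream scored 113 and 119 in U87-R+STM2457, against 49.6, 83.2 and 94.9 in U87-R, and did not pass. Farther on, the base at 137242645 scored 0 and 0 in U87-R+STM2457, against 69.6, 87.2 and 75.4 in U87-R. A run of bases 433 to 455 nt from the start was called in both U87-R+STM2457 libraries and in no other, with 31.6 and 26.4 at 137241721.

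The starts of TUBA1B and TUBA1C also held high-scoring bases. In TUBA1B the first base (49131395 on chromosome 12) scored 124 and 128 in U87-R+STM2457, against 98.0, 124 and 107 in U87-R, and the next base scored 86.95 and 128 in U87-R+STM2457, against 97.8, 123 and 103 in U87-R. The base after that scored 104 and 107 in U87-R+STM2457, against 78.6, 97.1 and 81.0 in U87-R, and did not pass the test at 0.31 ± 0.12 on the log2 scale (limma, adjusted p = 0.129). In TUBA1C the first base of the most downstream annotated start (49265082 on chromosome 12) scored 119 and 119.9 in U87-R+STM2457, against 84.1, 115 and 101 in U87-R, and the next base (49265083) scored 96.5 and 99.6 in U87-R+STM2457, against 68.5, 99.1 and 85.8 in U87-R. With 49265081, given above, these are the 3 highest-scoring bases of TUBA1C, and none passed the test. The base at 49269455, far inside the gene, scored 43.0 and 30.8 in U87-R+STM2457 and 0 in every U87-R and U87 library. The first bases of ACTB, TUBA1B and TUBB4B were not called with all libraries, at 0.25 ± 0.10, 0.20 ± 0.11 and 0.30 ± 0.11 on the log2 scale, and were called higher without U87-R replicate 2, at adjusted p of 0.0319, 0.0498 and 0.0383 in limma.

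TUBB6 carried the highest scores of all members, up to 168, in a cluster near the base 18708 nt into the gene on chromosome 18. Bases of this cluster moved in different ways. The bases at 12326365 and 12326377 scored 108 and 111, and 106 and 110.05, in U87-R+STM2457, against 150.01, 168 and 159.97, and 147, 165 and 156, in U87-R. Both fell, at -0.53 ± 0.07 and -0.52 ± 0.07 on the log2 scale, and lost the call when libraries were centred on the bases called in all of them (limma, adjusted p = 0.566 and 0.605). The base at 12326416 scored 96.5 and 99.3 in U87-R+STM2457, against 125, 144 and 123 in U87-R, and did not pass the test. The bases at 12326350 and 12326397 on either side of them were listed at 0 in both U87-R+STM2457 libraries and scored 151, 156 and 114, and 137, 125 and 145, in U87-R. The base at 12326335 scored 107 and 109 in U87-R+STM2457 and 0 in every U87-R and U87 library, as did, at a lower score, 12326449 with 80.7 and 50.8.

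**Figure D4:**
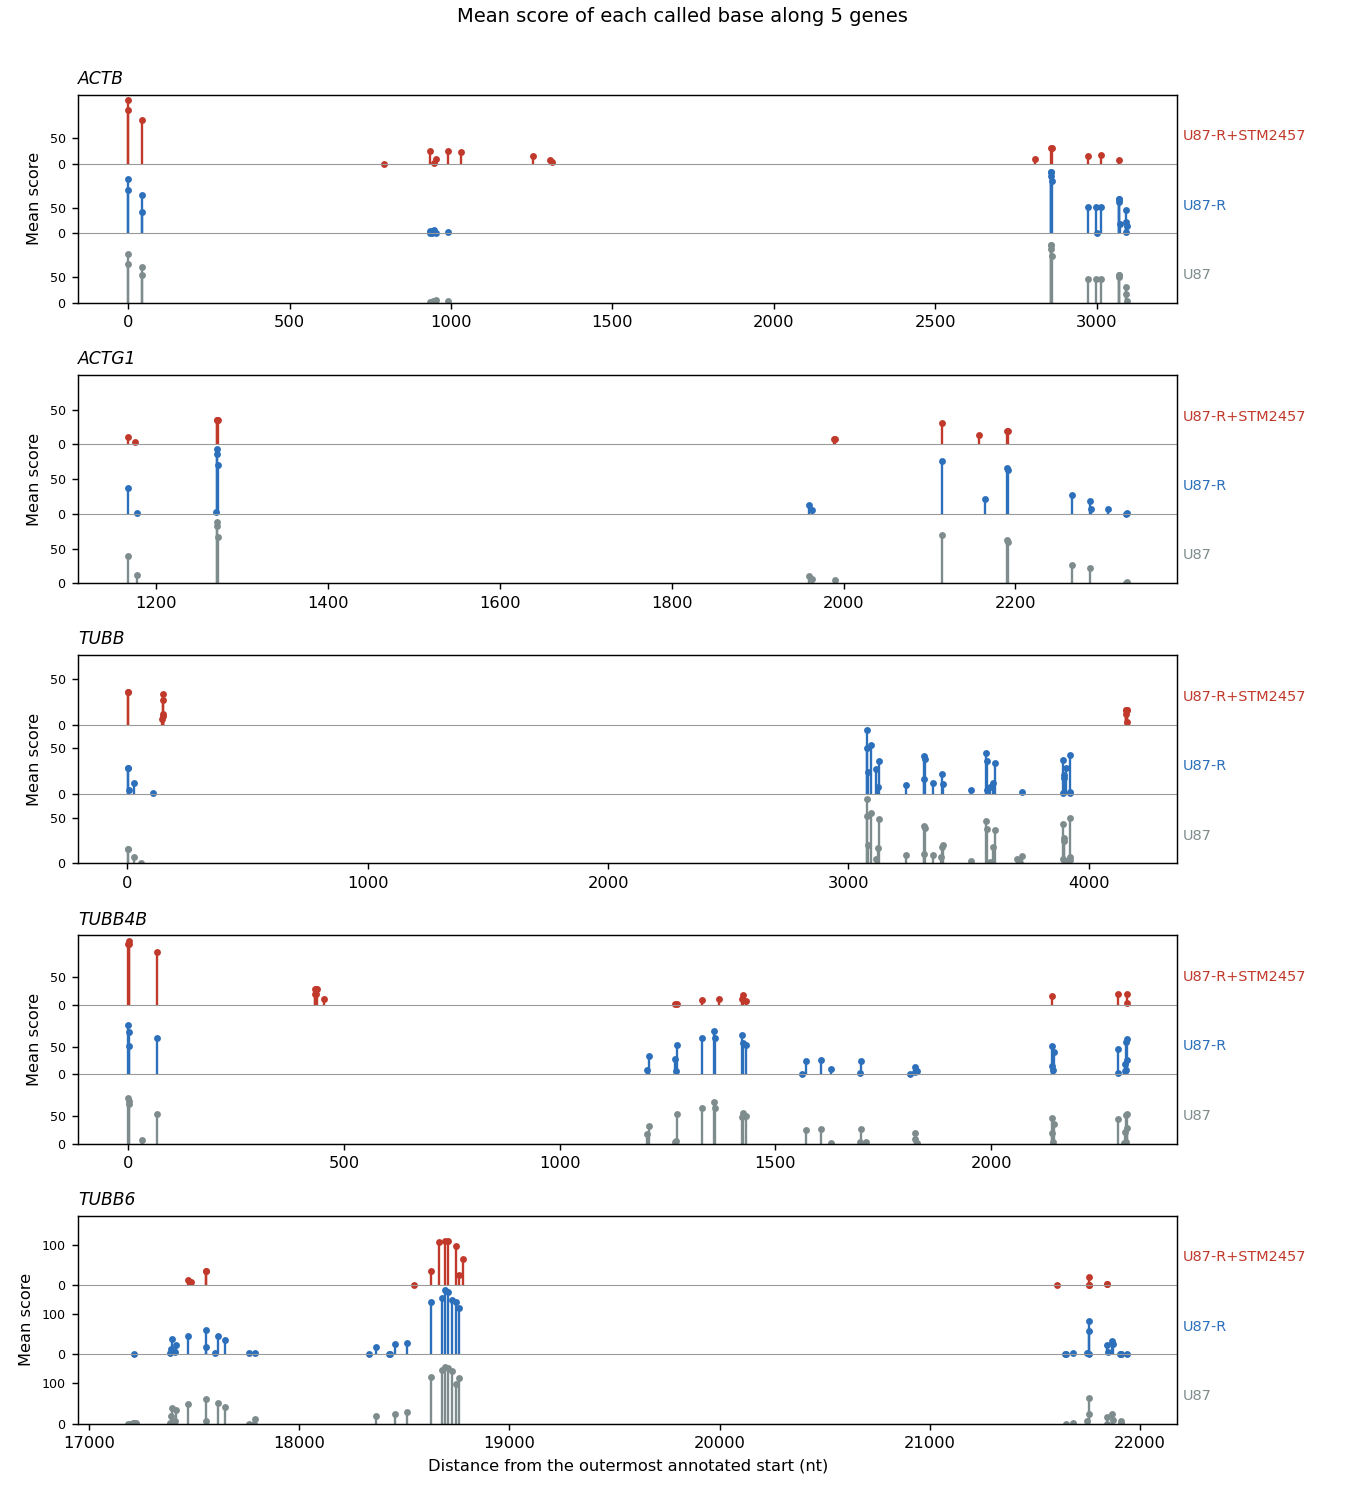
Mean score of each called base (vertical axis, score units, 1 strip per group with its own zero line) against the distance from the outermost annotated start in nt, for ACTB, ACTG1, TUBB, TUBB4B and the downstream stretch of TUBB6. The first bases of ACTB and TUBB4B and the TUBB bases at 4 and 5 nt are present in every group. The TUBB base at 3077 nt and its neighbours are at 0 in U87-R+STM2457, as are the ACTB base at 43 nt and the TUBB base at 27 nt. The ACTB base at 43 nt is also at 0 in U87-R replicate 2, and the TUBB base at 27 nt in U87 replicate 2. Neither of the latter bases passed the test (limma, adjusted p = 0.178 and 0.0834).

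Counted over all members, 95 bases scored at least 10 in every U87-R library, of which 39 (41.1%) were listed at 0 in both U87-R+STM2457 libraries and 45 (47.4%) still scored at least 10 in both. Over all called bases of the series, inside genes or not, these shares were 26.6% and 46.5%. Within 50 nt of a start 0 of 19 member bases were at 0 and 18 were kept, where all genes had 1.07% and 92.5%. In the rest of the genes 39 of 76 (51.3%) were at 0 and 27 (35.5%) were kept, where all genes had 31.1% and 38.8%. The members shared the libraries and had unequal numbers of bases, and no test was made on these shares.

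A called base 1 nt upstream of the annotated span, and so outside the member counts, was seen in ACTB, TUBA1B, TUBB2A and TUBB4B. In ACTB it scored 111 and 112 in U87-R+STM2457, against 88.2, 113 and 99.5 in U87-R, and in TUBB4B 116 and 119 in U87-R+STM2457, against 89.4, 109.5 and 99.4 in U87-R. In TUBB2A it scored 108 and 96.4 in U87-R+STM2457, against 33.9, 22.9 and 43.9 in U87-R and 13.2, 20.5 and 26.1 in U87, and the first base of the span scored 98.2 and 88.6 in U87-R+STM2457, against 35.1, 46.0 and 66.8 in U87-R and 25.7, 37.1 and 48.9 in U87. The next highest bases of TUBB2A, at 3153905 and 3153890 near its other end, scored 0 and 0, and 0 and 19.7, in U87-R+STM2457, against 19.4, 4.72 and 19.99, and 12.4, 9.43 and 14.2, in U87-R. The first base of TUBB2A did not pass the test at 0.95 ± 0.33 on the log2 scale (limma, adjusted p = 0.0835), and was called higher without U87-R replicate 3 (limma, adjusted p = 0.0481) and with the replicate number as a block (limma, adjusted p = 0.0214).

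The second question was whether these genes differ between resistant and parental cells. No member was called in U87-R against U87, where 1.26% of 10519 genes were called in either direction (94 higher, or 0.894%, and 39 lower, or 0.371%). In a fit that pairs libraries of equal number (the replicate block), the number called was 68, and again no member was among them. Leaving out U87-R replicate 1, U87-R replicate 3 or U87 replicate 1 brought the number to 57, 61 and 75, also with no member. The nearest was ACTB, with 1254, 1216 and 1219.7 in U87-R against 1091, 1115 and 1032 in U87. Its libraries did not overlap, but the log2 change of 0.19 ± 0.10 did not pass (limma, adjusted p = 0.496), and it was 0.03 when centred on the median gene.

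TUBB2A had the largest positive estimate, with sums of 79.2, 87.9 and 126 in U87-R against 26.6, 47.4 and 100.7 in U87, a change of 0.91 ± 0.49 (limma, adjusted p = 0.498). TUBB had 765, 844 and 760.1 in U87-R against 656, 769.9 and 899.7 in U87, and its estimate was 0.04 ± 0.14. TUBB4B had 1137, 1375 and 1221 in U87-R against 1105, 1247 and 1164 in U87, and TUBB6 had 2041, 2098 and 1992 in U87-R against 1700.1, 1908 and 2005 in U87. TUBA1B had 415, 551 and 395 in U87-R against 231, 444 and 395 in U87, and TUBA1C had 305, 423 and 478 in U87-R against 365, 446 and 295 in U87. The groups overlapped in each of these 6 genes. The share of all genes whose groups overlap was not counted in either comparison, so overlap or its absence is a description only. The estimate for ACTG1 was 0.12 ± 0.12 on sums of 581, 619 and 596 in U87-R and 539, 573 and 538 in U87, which did not overlap and did not pass the test (limma, adjusted p = 0.746).

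At single bases 0 of the 186 member bases tested were called between U87-R and U87, and 12 had an unadjusted p under 0.05; over all bases 0.00053% were called, which was 1 base (3977 without U87-R replicate 2), and 20706 had an unadjusted p under 0.05. The base at 3153860 on chromosome 6, 3684 nt into TUBB2A and named after its values were seen, scored 6.29, 20.4 and 5.08 in U87-R against 0, 0 and 0 in U87. It was also listed at 0 in both U87-R+STM2457 libraries, so it passed the filter through the U87-R libraries alone and its values are a description. Its calls without U87-R replicate 2 and among bases called in every library of 1 group are no support for a change. In no other setting was this base called. Among the highest-scoring bases, 5527743 of ACTB scored 111, 131 and 119 in U87-R against 119.9, 108 and 110.4 in U87 (0.09 ± 0.10; limma, adjusted p = 0.753). The TUBB4B base 3 nt after the start, 137241290, scored 28.3, 66.7 and 56.5 in U87-R against 72.7, 76.6 and 64.9 in U87, a change of -0.57 ± 0.29 that did not pass (limma, adjusted p = 0.448). In TUBB6, 12326416 scored 125, 144 and 123 in U87-R against 83.1, 91.0 and 119 in U87. Its groups did not overlap, and the change of 0.43 ± 0.14 had an unadjusted p of 0.0151 and did not pass (limma, adjusted p = 0.416).

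The authors' deposited tables of sites and peaks, made from all libraries of a group, placed 10 sites in the members for U87-R+STM2457, 30 for U87-R and 29 for U87. Over all genes and regions these deposited sites numbered 12791 for U87-R+STM2457, 35207 for U87-R and 33396 for U87. Fewer sites with STM2457 were therefore not particular to the members. In the authors' deposited table, ACTG1 and TUBB had 0 sites and 0 peaks for U87-R+STM2457, against 2 and 5 sites and 18 and 8 peaks for U87-R. TUBA1B had 12 peaks for U87-R+STM2457, 3 for U87-R and 5 for U87 in the authors' deposited table. The authors' deposited sites in TUBA1B numbered 1 for U87-R+STM2457, 2 for U87-R and 2 for U87. TUBA1A had 0 sites and 0 peaks in every group. The authors' deposited peaks covered 1026 nt of the members for U87-R+STM2457, 2010 nt for U87-R and 2074 nt for U87. All deposited peaks together covered 2725474 nt for U87-R+STM2457, 4575155 nt for U87-R and 4518824 nt for U87.

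Genes that act with actin and tubulin were set beside the members. Of 19 other actin and tubulin genes 7 were tested in U87-R+STM2457 against U87-R, and 2 (28.6%) were lower and 0 higher, with a median log2 change of -0.78; over all genes tested 37.8% were lower and 6.29% higher. TUBG1, the gamma-tubulin that nucleates microtubules, had 9.42 and 35.1 in U87-R+STM2457, against 191, 203 and 147 in U87-R (-3.21 ± 0.51; limma, adjusted p = 0.00123). TUBA4A had 650.3 and 657 in U87-R+STM2457, against 1183, 1023 and 1161 in U87-R (-0.78 ± 0.12; limma, adjusted p = 0.00101), and lost the call when centred (limma, adjusted p = 0.300).

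Of 54 listed genes of actin binding and filament assembly 42 were tested. Of these 9 (21.4%) were higher and 9 (21.4%) lower, where all genes had 6.29% and 37.8%, and the median log2 change was 0.01 beside -0.68 over all genes. Centred, 13 (31.0%) were higher and 4 (9.52%) lower, where all genes had 15.3% and 24.2%. TPM3, a tropomyosin that coats actin filaments, had 526 and 539.9 in U87-R+STM2457, against 192, 229 and 172 in U87-R (1.44 ± 0.28; limma, adjusted p = 0.00365), and ARPC3, a subunit of the Arp2/3 complex that branches filaments, had 245 and 277 in U87-R+STM2457, against 73.6, 154 and 54.8 in U87-R. EVL, which promotes filament growth, had 14.6 and 23.9 in U87-R+STM2457, against 0, 0 and 2.93 in U87-R. EVL passed the filter on low sums only through the U87-R+STM2457 libraries, so its values are a description. FSCN1, which bundles filaments, had 0.311 and 0.416 in U87-R+STM2457, against 63.2, 66.2 and 45.5 in U87-R. It passed the filter on low sums only through the U87-R and U87 libraries, so its values are a description. The counts of this list include EVL and FSCN1. ARPC2, another Arp2/3 subunit, had 5.46 and 17.7 in U87-R+STM2457, against 108, 127 and 183 in U87-R, and PFN2, a profilin that binds actin monomers, had 91.7 and 100.5 in U87-R+STM2457, against 343, 315 and 328 in U87-R.

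For tubulin folding and microtubule binding, 41 of 48 genes were tested. Of these 7 (17.1%) were higher and 15 (36.6%) lower, the lower share being near the 37.8% of all genes and the higher share above their 6.29%, with a median of -0.02. Centred, 11 (26.8%) were higher and 11 (26.8%) lower, beside 15.3% and 24.2% of all genes. CCT3, a subunit of the chaperonin that folds actin and tubulin, had 123 and 168 in U87-R+STM2457, against 33.1, 28.2 and 32.0 in U87-R (2.18 ± 0.49; limma, adjusted p = 0.00674). MAP2, a microtubule-binding protein of neurons, had 47.8 and 39.3 in U87-R+STM2457 and was listed at 0 in all 3 U87-R libraries. MAP2 passed the filter on low sums only through the U87-R+STM2457 libraries, so its values are a description. TUBGCP3, a subunit of the gamma-tubulin complex, had 32.6 and 85.1 in U87-R+STM2457, against 21.6, 0.659 and 0 in U87-R. VASH1, a vasohibin, had 19.7 and 60.6 in U87-R+STM2457, against 308, 156 and 247 in U87-R. HDAC6, the tubulin deacetylase, had 45.9 and 1.11 in U87-R+STM2457, against 152, 72.0 and 126 in U87-R. SVBP, the partner of the vasohibins that remove the last tyrosine of alpha-tubulin, was listed at 0 in both U87-R+STM2457 libraries. Its sums in U87-R were 24.2, 6.02 and 35.3. SVBP passed the filter on low sums only through the U87-R and U87 libraries, so its values are a description. The counts of this list include MAP2 and SVBP.

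The axis of SRF and its actin-sensing coactivators, which drives transcription of actin genes, had 11 of 16 genes tested. Of these 1 (9.09%) was higher and 5 (45.5%) lower, near the 6.29% and 37.8% of all genes, with a median of -0.55. Centred, 2 (18.2%) were higher and 1 (9.09%) lower, beside 15.3% and 24.2% of all genes. FHL2 had 289 and 229.8 in U87-R+STM2457, against 169.9, 127 and 188 in U87-R (0.69 ± 0.24; limma, adjusted p = 0.0449). CCN1, a matrix protein gene induced through this axis, had 238 and 238 in U87-R+STM2457, against 748, 718 and 601 in U87-R (-1.52 ± 0.27; limma, adjusted p = 0.00198). JUNB, an AP-1 subunit gene, had 1021 and 901 in U87-R+STM2457, against 1832, 1735 and 1594 in U87-R, and CCN2, a relative of CCN1, had 211 and 283 in U87-R+STM2457, against 574, 695 and 608 in U87-R; both lost the call when centred (limma, adjusted p = 0.188 and 0.115). No gene of these lists was called between U87-R and U87 without scaling. Centred on the median gene, CCT5, a chaperonin subunit named after its values were seen, was lower, with 141, 144 and 147 in U87-R against 227, 277 and 255 in U87 (limma, adjusted p = 0.0428).

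The genes whose sums ran most like those of ACTB over the 8 libraries were CSRP1, DVL3 and SLC35A5, with root-mean-square differences of 0.0662, 0.0740 and 0.0766 on the log2 scale after each gene's own mean was subtracted. For TUBB they were DERL2, P4HB and MYPOP, with 0.0873, 0.0913 and 0.0935. These values describe likeness over the same 8 libraries only.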

How the data were processed

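The submitters' processing notes name UMI-tools, cutadapt and STAR with build hg38; no label or header names the base caller or its settings. Per library, the authors deposited called bases with strand and a score whose formula is not stated, and, per group, combined sites and peaks with a score and the fraction of libraries that held them. A base not listed was taken as score 0. Scores were summed per gene on its strand over RefSeq GRCh38.p14 spans. The strand came from the promoter table for 27305 genes or from called bases for 1790, and ACTB was given its known strand. Of 452349 bases, 393632 fell in 1 gene.

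Sums of at least 10 in at least 2 libraries, and bases called in at least 2 libraries of 1 group, were compared as log2(value + 1), without scaling, in limma 3.58.1 (R 4.3.3) with a trend and 3 group means over 8 libraries, with Benjamini-Hochberg adjustment over all features. A fold change on this scale understates low values. A start window was 0 to 50 nt downstream of an annotated start. Tests ran on simulated data first.

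The members and gene lists were chosen with earlier results of these data known. All 10 members are named, with the 3 highest-scoring bases of each and the 5 largest changes per direction; in each list, up to 3 called genes per direction. Same-numbered U87-R and U87 libraries correlated at 0.101, 0.316 and 0.108 in their deviations from group means, each over 0.1, and were treated as pairs in the block fit. U87-R 1 with U87 3 reached 0.144 and U87-R 3 with U87 1 reached 0.121, and the other unlike pairs were negative. Only number 2 thus correlated most with its own number. U87-R+STM2457 libraries did not pair with U87-R (-0.02 at number 1 and -0.02 at number 2). The block held the replicate number of all 8 libraries, so it also entered U87-R+STM2457 against U87-R, where no pairing was seen. An exact permutation test could not go below 0.1 with 3 against 3 or 3 against 2 libraries.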

Additional observations from a re-analysis of the deposited data

How the results depend on the processing

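Between U87-R+STM2457 and U87-R the direction of ACTB, ACTG1, TUBB, TUBB4B and TUBB6 held in every alternative run. TUBA1B, not called, turned to 0.49 centred on the median gene, 0.63 scaled to totals, 0.18 as a number of called bases and 3.48 without the start windows (of every start or of the outermost alone), and ran from -0.16 to 0.082 with 1 library left out. TUBB2A turned to -1.38 as a number of called bases and -3.04 without either start window, and TUBA1C ran from -0.079 to 0.24 with 1 library left out. Between U87-R and U87 the uncalled changes turned when centred to -0.034 for ACTG1, -0.038 for TUBA1C, -0.12 for TUBB, -0.073 for TUBB4B and -0.026 for TUBB6, when scaled to totals to -0.059 for TUBB and -0.013 for TUBB4B, as a number of called bases to -0.19 for TUBA1C and -0.036 for TUBB, and without either start window to -0.029 for TUBB; with 1 library left out TUBA1C ran from -0.032 to 0.30 and TUBB from -0.077 to 0.15.

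Genes called between U87-R and U87 numbered 71 by number of bases, 87 with the 2 groups alone, 68 with the replicate block and 57 to 190 with 1 library left out, and in U87-R+STM2457 against U87-R 2988 to 5152 with 1 left out. Genes called on start window sums numbered 762 with the replicate block and 512 to 1092 with 1 library left out, and a pseudocount of 10 called 2 members, TUBA1A included; on the start-to-rest ratio 1431 to 2301 were called with 1 left out. The sums near the start turned to -0.011 for ACTB with the replicate block, and ran from -0.21 to 0.032 for TUBA1B, -0.30 to 0.16 for TUBA1C and -0.14 to 0.18 for TUBB with 1 library left out. Bases called between U87-R and U87 numbered 13 with a pseudocount of 10, 2685 among bases called in every library of 1 group (1 in a member), 0 without a filter, with the 2 groups alone or with the replicate block, and 0 to 3977 with 1 library left out (0 to 1 in members). The base at 49131394 of TUBA1B turned to 0.35 centred and 0.30 with the block and ran from -0.30 to 0.25 with 1 library left out, and that at 3153890 of TUBB2A ran from -3.68 to 0.69. The share near a start was 52.1% in U87-R+STM2457 and 25.01% in U87-R with a window of 100 nt, and by number of bases 25.3% in U87-R+STM2457, 14.8% in U87-R and 15.9% in U87. The replicate block changed no call of a member's sum; the start-to-rest calls and base calls it changed stand beside the results. The start window sums, the start-to-rest ratio, the outermost-start window and the base 1 nt before a start were chosen after seeing the data. The cause of these shifts was not tested.

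Leaving out 1 of the 2 U87-R+STM2457 libraries assumes that the lone library varies like the other groups. With no reads behind the scores, a base listed at 0 is one that was not called, and no detection limit can be given.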
